A study of Homo sapiens with 2 samples.

Results

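The genes described here are 58 protein-coding genes of chromosome 18, from SMAD2 to the end of the long (q) arm, out of 43270 genes and transcripts named in the files. Their rows were found by gene name in the first column of both raw arrays and of the normalized table, and all 58 were found, with 91 probes. The stretch was chosen because its genes had higher signals on the array of the cytarabine-resistant line, so the differences given below are a description of the genes that this contrast picked and not a test of it. The groups were R-HL60, a line made by continuous growth of HL60 in increasing concentrations of cytarabine, and HL60, its untreated parent. Both belong to the human acute myeloid leukaemia line HL60 and were grown in the same serum-supplemented medium. Cytarabine is a deoxycytidine analogue that blocks DNA synthesis after cellular kinases have phosphorylated it. Of each line 1 Agilent array with 58201 probes and a single dye was read, so the line and its array cannot be told apart, and no difference has a replicate, a standard error or a p-value. Whether R-HL60 is 1 clone or a population is not stated in the labels. DNA was not measured in these samples.

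The q end of chromosome 18 carries genes of unrelated pathways that lie side by side. The best known are SMAD2, SMAD4 and SMAD7, which carry or restrain signals of the transforming growth factor beta (TGF-beta) family. Receptors of that family phosphorylate SMAD2, which then binds the shared partner SMAD4 and enters the nucleus, whereas SMAD7 is an inhibitory member whose own transcription is switched on by the pathway. DCC and SMAD4 were described in this region as genes lost in colorectal and pancreatic cancers. Other genes of the stretch serve the secretory pathway, mitochondria, chromosome segregation and transcription. Most genes near each other on a chromosome have no common function, and they are read here as neighbours and not as a pathway.

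Signals were background levels for some members. A gene was taken as measured when its brightest probe lay above the floor, which was the array's own median signal, 32.8 on the R-HL60 array and 30.7 on the HL60 array. By this rule 45 members were above the floor on both arrays, NEDD4L was above it on the R-HL60 array only, FBXO15 on the HL60 array only, and 11 on neither. The 11 were DCC, RAB27B, ATP8B1, ALPK2, RNF152, DSEL, DOK6, CD226, SOCS6, CYB5A and PARD6G, and their signals ran from 1.58 to 10.66 over both arrays, so no difference is given for them. The identity of the cells was checked by 12 promyelocytic markers, all above the floor on both arrays, with a signal of 285746 on the R-HL60 array and 309491 on the HL60 array for the myeloperoxidase gene MPO. By the log2 difference, R-HL60 minus HL60, 2 of these 12 were above 0. ITGB2 was at least 1.2-fold higher, at 0.73. ELANE, PRTN3, CEBPA and MYC were at least 1.2-fold lower, at -2.20, -0.80, -0.46 and -0.42. The ELANE signal was 153 in R-HL60 and 700 in HL60. Summed over the 12, a total in which MPO and CTSG are the largest terms, the signal was 938834 in R-HL60 and 1058830 in HL60. Of 5 fibroblast markers none was above the floor on both arrays and DCN was above it on the R-HL60 array only, and the epithelial gene EPCAM was above it on neither. CD3D, CD4, CD79A, KRT8 and KRT18, kept as T cell, B cell and epithelial markers, were above the floor on both arrays. The summed signal of the 5 markers of each type was 17054 in R-HL60 and 14108 in HL60 for T cells, 3053 and 2757 for B cells, 1874 and 1670 for epithelium and 67.2 and 57.8 for fibroblasts. Their part in the differences below was not tested.

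Most members measured on both arrays had a modestly higher signal in R-HL60. The differences are log2 values, R-HL60 minus HL60, after each array was scaled to its own 75th percentile. Their median over the 45 members was 0.26, a 1.2-fold higher signal, with the middle of the distribution (the quartiles) between 0.13 and 0.39 and an SD between members of 0.25. For the 21838 genes measured on both arrays the median was -0.03 and the SD 0.29. In 41 of the 45 members the difference was above 0, as it was in 42.8% of all genes. At least 1.2-fold higher were 23 members, against 12.1% of all genes, and 1 member was at least 1.2-fold lower, against 10.5% of all genes. Since the members were chosen from this contrast, these shares say only what was selected. The shift was broad and small: 5 members were at least 1.5-fold higher, where 3.16% of all genes were, and none was 2-fold higher. Different probes of a gene gave an SD of 0.19 over 4723 genes with several measured probes, an error that applies to the difference of a single gene and not to a median over many. It leaves out variation between cultures and between arrays. Members at the edge of the 1.2-fold rule were NETO1, at 0.263, just inside, and VPS4B, at 0.256, just outside.

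**Figure D1:**
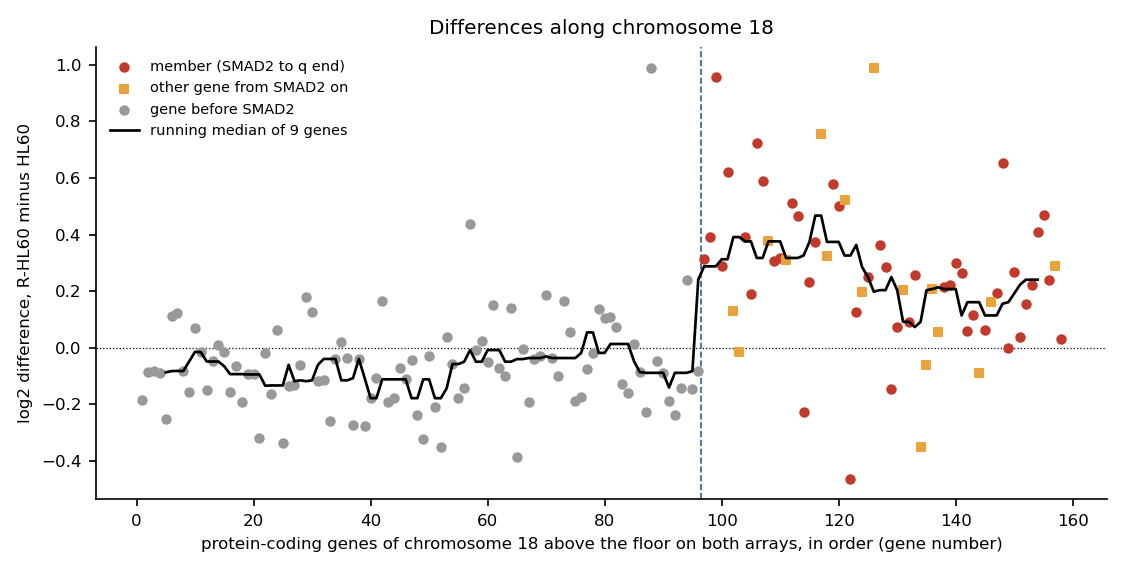
Log2 difference (R-HL60 minus HL60, vertical axis) of each of the 158 chromosome 18 protein-coding genes above the floor on both arrays, in order along the chromosome (horizontal axis, gene number). The black line is the running median of 9 genes; it lies between 0.07 and 0.47 where all 9 genes are from SMAD2 on (right of the dashed line), and between -0.18 and 0.05 where all 9 are before SMAD2.

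Along the chromosome the difference changed at SMAD2, where the stretch chosen from this same contrast begins. The 45 measured members had a median of 0.26, and the 96 measured protein-coding genes before SMAD2 one of -0.08. Of those 96 genes 24 were above 0 and 2 at least 1.2-fold higher. The median of the members was 0.35 above that of the chromosome 18 genes before SMAD2. Since the stretch was chosen for its higher signals, this gap and the running medians below describe that choice and do not test it. The 3 measured genes just inside the boundary were SMAD2 at 0.31, CTIF at 0.39 and SMAD7 at 0.96, and the 3 just outside were IER3IP1 at -0.08, HDHD2 at -0.15 and KATNAL2 at 0.24. PSTPIP2, a gene 9 measured genes before the boundary that was picked out after its value was seen, stood apart from its neighbours at 0.99. A running median over 9 consecutive genes stayed between 0.07 and 0.47 in the 54 windows from SMAD2 on and between -0.18 and 0.05 in the 88 windows before SMAD2. The 22 other chromosomes compared (1 to 22 without 18, and X) had medians between -0.08, for chromosome 13, and -0.03, for chromosome 6.

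**Figure D2:**
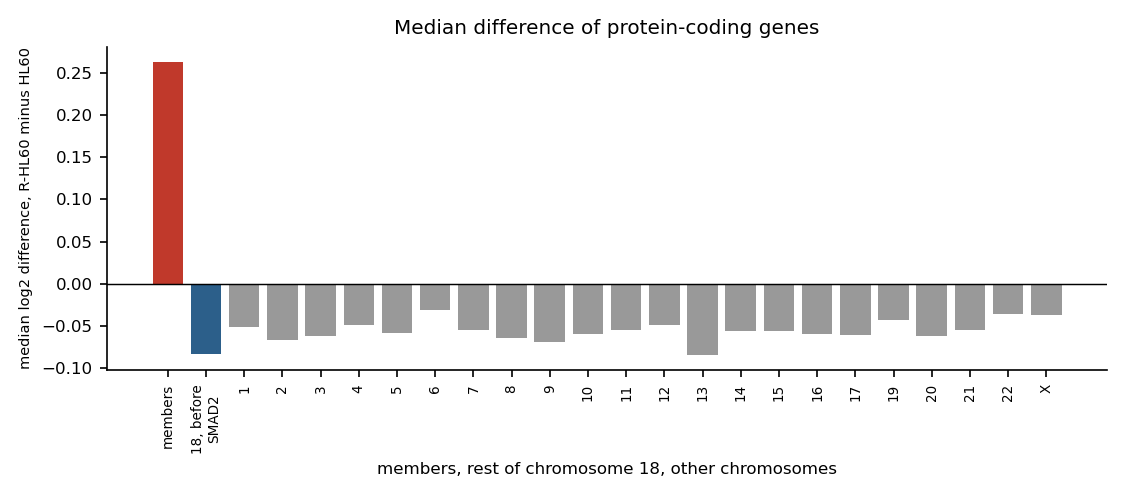
Median log2 difference (R-HL60 minus HL60) over the protein-coding genes above the floor on both arrays, for the 45 members, for chromosome 18 before SMAD2 and for each of 22 other chromosomes. The bar of the members reaches 0.26; every other bar shown lies between -0.08 and -0.03.

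The difference was not even within the stretch. In 3 equal groups of 15 measured members in chromosome order, the median was 0.39 from SMAD2 to TXNL1, 0.25 from WDR7 to RTTN and 0.19 from NETO1 to ADNP2. The number at least 1.2-fold higher was 12, 6 and 5 in that order. The lowest running median, 0.07, was centred on VPS4B and the highest, 0.47, on WDR7 and ST8SIA3. The difference hardly varied with brightness. Its median was 0.26 in the 15 dimmest, 0.28 in the 15 of middle brightness and 0.26 in the 15 brightest members, while the SD narrowed to 0.15 in the brightest from 0.36 in the dimmest. All 15 of the brightest members were above 0, as were 12 of the 15 dimmest.

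Promoter windows of the members were looked up to see what the genes share that the choice did not use. RefSeq windows of 300 bases on GRCh38.p14, from 250 bases before to 50 after the annotated start, were found for 50 of the 58 members, 40 of them measured on both arrays. SMAD7 and SKA1 are printed because they had the largest differences of all measured members, at 0.96 and 0.72, and TCF4 and ZNF532 because they had the lowest, at -0.23 and -0.46. All 4 run 5′ to 3′ on the gene's strand, and capitals mark CG dinucleotides.
SMAD7 (chr18:48950916-48951215, minus strand): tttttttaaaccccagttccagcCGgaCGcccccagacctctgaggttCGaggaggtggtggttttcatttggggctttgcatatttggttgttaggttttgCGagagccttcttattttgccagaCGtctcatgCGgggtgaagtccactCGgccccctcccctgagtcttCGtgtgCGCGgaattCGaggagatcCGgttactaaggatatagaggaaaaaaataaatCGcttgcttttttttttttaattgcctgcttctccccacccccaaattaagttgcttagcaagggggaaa
SKA1 (chr18:50374796-50375095, plus strand): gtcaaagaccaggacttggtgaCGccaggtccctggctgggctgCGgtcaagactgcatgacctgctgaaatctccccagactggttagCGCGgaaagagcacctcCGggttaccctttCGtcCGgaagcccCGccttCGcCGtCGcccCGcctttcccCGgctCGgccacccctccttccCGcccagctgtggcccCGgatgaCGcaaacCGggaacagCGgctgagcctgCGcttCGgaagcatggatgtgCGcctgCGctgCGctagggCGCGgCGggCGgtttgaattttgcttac
TCF4 (chr18:55635908-55636207, minus strand): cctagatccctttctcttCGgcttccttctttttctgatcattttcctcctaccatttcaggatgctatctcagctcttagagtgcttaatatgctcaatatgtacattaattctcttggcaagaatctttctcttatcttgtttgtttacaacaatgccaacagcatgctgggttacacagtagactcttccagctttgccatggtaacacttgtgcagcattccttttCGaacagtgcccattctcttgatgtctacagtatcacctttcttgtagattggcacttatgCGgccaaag
ZNF532 (chr18:58862674-58862973, plus strand): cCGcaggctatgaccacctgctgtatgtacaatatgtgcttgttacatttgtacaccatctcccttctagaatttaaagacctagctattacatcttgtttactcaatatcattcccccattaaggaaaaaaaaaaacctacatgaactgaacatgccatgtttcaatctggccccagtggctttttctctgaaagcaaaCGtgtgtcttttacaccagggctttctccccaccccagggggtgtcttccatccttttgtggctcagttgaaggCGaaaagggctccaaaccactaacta
The SKA1 window held 28 CG dinucleotides and the SMAD7 window 13, whereas those of TCF4 and ZNF532 held 3 each, the lowest counts among the 40 measured members, whose highest was 59. Both genes have further start sites, and the table gives 1 start for each gene. The low CG counts were noticed after the differences were known.

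As a group the member promoters were GC-rich like those of other expressed genes. The 40 measured members had a median GC content of 68.3% and a median of 30 CG dinucleotides, against 64.7% and 25 for the 10534 protein-coding genes above the floor on both arrays that have a window. The GC box GGGCGG was found on either strand in 72.5% of the 40, against 66.7% of those genes, the CCAAT box CCAAT in 40% against 36.8%, and the TATA box TATAAA in 2.5% against 6.90%. Neighbouring matches of these motifs can share letters at their ends, and a match is a description only. The 20 measured members with the lower GC content had a median difference of 0.29 and the other 20 one of 0.25.

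Pairs of members share a promoter window. PIGN and KIAA1468 (now named RELCH) point away from each other, on the minus and the plus strand, and their windows overlap by 298 bases. The KIAA1468 window is printed with the bases it shares with PIGN in capitals.
KIAA1468 (chr18:62187005-62187304, plus strand): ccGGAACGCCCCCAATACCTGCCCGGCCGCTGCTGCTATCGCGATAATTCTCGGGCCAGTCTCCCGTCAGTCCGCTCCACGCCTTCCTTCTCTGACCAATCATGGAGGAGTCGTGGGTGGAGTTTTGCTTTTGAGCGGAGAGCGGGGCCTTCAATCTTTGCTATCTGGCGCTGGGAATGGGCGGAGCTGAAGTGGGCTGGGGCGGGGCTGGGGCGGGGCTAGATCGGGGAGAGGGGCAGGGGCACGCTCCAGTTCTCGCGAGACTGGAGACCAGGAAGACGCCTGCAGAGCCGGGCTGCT
PIGN, which encodes an ethanolamine phosphate transferase of glycosylphosphatidylinositol (GPI) anchor synthesis, had signals of 369 in R-HL60 and 285 in HL60, a difference of 0.36. KIAA1468, whose product acts in cholesterol transport between recycling endosomes and the trans-Golgi, had 942 in R-HL60 and 769 in HL60, a difference of 0.28. Both were higher, by amounts between the quartiles of all measured members, 0.13 and 0.39. Whether the shared window plays a part was not tested. FBXO15 and TIMM21 also point away from each other, with windows that lie close but share no bases. FBXO15 was at least 1.13-fold lower in R-HL60, while TIMM21 differed by 0.06. The windows of TMX3, for a disulphide isomerase of the endoplasmic reticulum, and CCDC102B, for a centrosomal linker protein, share 207 bases. These 2 genes differed by 0.21 and 0.22, also between those quartiles. The CCDC102B signal was dim, at 37.8 in R-HL60 and 32.2 in HL60.

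The 3 measured SMAD genes were all at least 1.2-fold higher in R-HL60. SMAD7, the inhibitory SMAD, had a signal of 406 in R-HL60 and 208 in HL60, a 1.94-fold difference and the largest of the measured members. SMAD7 has only 1 probe, so no other probe could be set beside this value. SMAD2 had 388 in R-HL60 and 311 in HL60 (1.24-fold) on its brightest probe and 260 against 162 on another, a log2 difference of 0.68. SMAD4, the shared partner, had 1703 in R-HL60 and 1368 in HL60 (1.24-fold), and its other probe gave nearly the same difference, 0.32. For SMAD2 and SMAD4 the measured probes thus pointed the same way. A further probe of SMAD2 was below the floor on both arrays. NEDD4L, a ubiquitin ligase that acts on activated SMAD2, had 39.1 in R-HL60 and 21.2, below the floor, in HL60, which makes it at least 1.27-fold higher. Its other probes were below the floor on both arrays.

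Other genes of the SMAD pathway, which lie outside the stretch, did not show this pattern as a list. Of 23 such genes 14 were measured on both arrays, with a median of 0.03, and 2 passed 1.2-fold in each direction. The co-receptor gene TGFBR3 was the highest at 0.63 and the receptor gene BMPR2 the lowest at -0.50. SMAD3, the close relative of SMAD2 on another chromosome, differed by 0.26, SMAD5 by -0.06 and the receptor TGFBR1 by -0.09. TGFBR2 was the other gene at least 1.2-fold higher, at 0.27. Of 15 known target genes 12 were measured, with a median of -0.21, with 0 past 1.2-fold in the higher and 5 in the lower direction, from LTBP3 at -0.66 to CDKN2B at 0.20. The lower targets included ID2, an inhibitor of basic helix-loop-helix factors, at -0.44 and ID3 at -0.40. SKIL belongs to both lists and differed by -0.42.

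Members placed under cell division, the centrosome and DNA had the highest median among the roles with at least 5 measured members, at 0.47. SKA1, a subunit of the kinetochore complex that holds chromosomes on spindle microtubules, had a signal of 778 in R-HL60 and 468 in HL60 (1.65-fold). POLI, a DNA polymerase that copies past damaged bases, had 1068 in R-HL60 and 744 in HL60 (1.43-fold). C18orf54, placed in this role without a function that is given here, had 243 in R-HL60 and 174 in HL60 (1.38-fold). All 3 rested on 1 probe each, and the median of the role is the value of C18orf54. They also lie in the group from SMAD2 to TXNL1, whose median over all its measured members was 0.39. Role and position were not told apart. RTTN, a centriole protein gene, differed by 0.30. FBXO15, an F-box gene, was the only member with a bound in the lower direction, at 26.5, below the floor, in R-HL60 and 36.8 in HL60, at least 1.13-fold lower.

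**Figure D3:**
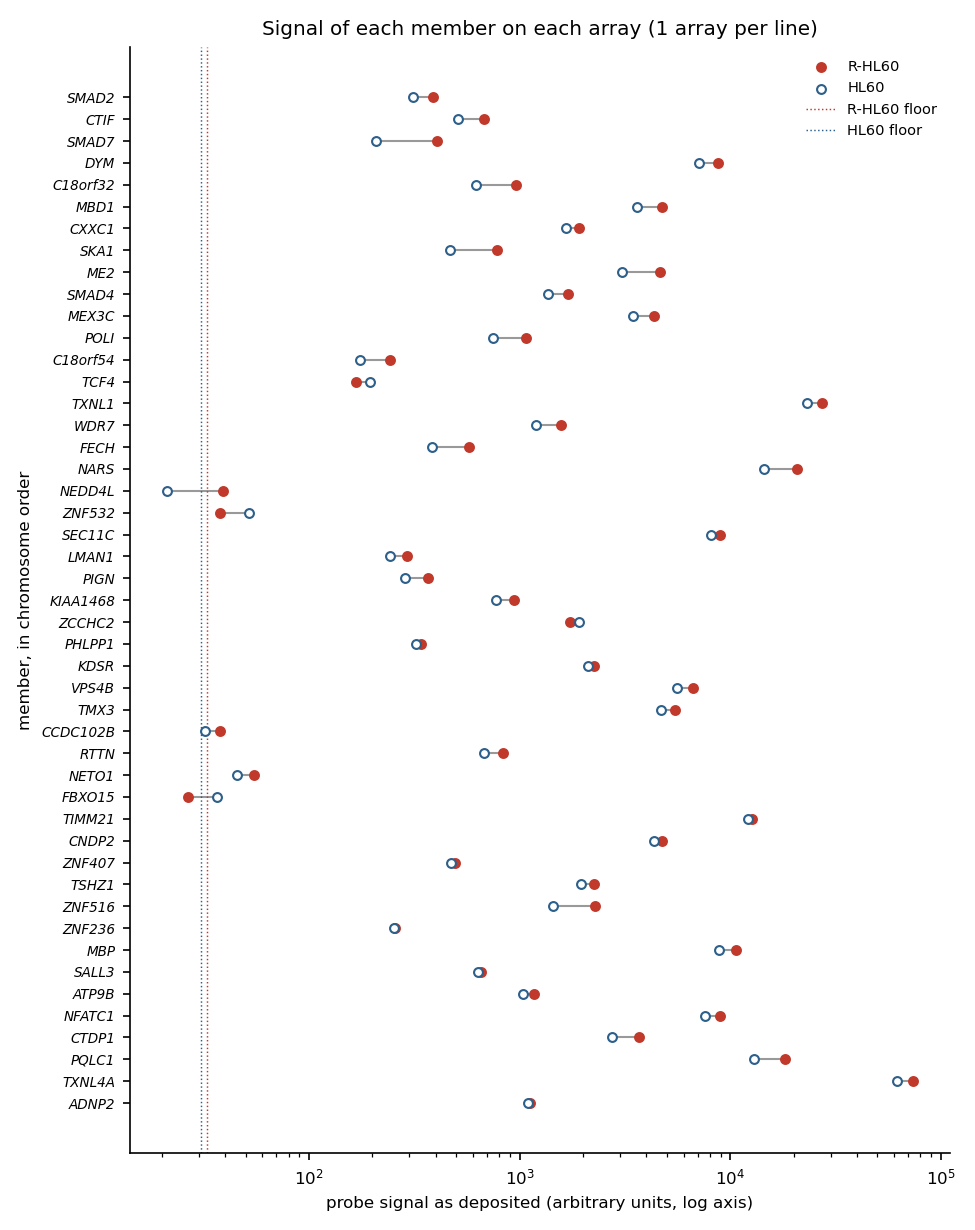
Deposited signal (horizontal log axis, arbitrary units) on the R-HL60 array (filled) and on the HL60 array (open) for the 47 members above the floor (dotted lines, 32.8 and 30.7) on at least 1 array, in chromosome order from top to bottom. Filled points lie right of open ones for most members, with the widest gap among members measured on both arrays at SMAD7 (406 and 208).

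The secretory pathway, membrane traffic and lipid group was, as the roles were assigned, the most uniform of the larger groups. All 12 measured of its 15 members were above 0, with a median of 0.27, an SD of 0.14 and 6 at least 1.2-fold higher. KDSR, a gene of sphingolipid synthesis at 0.09, was counted under metabolism instead. C18orf32 had 962 in R-HL60 and 622 in HL60 (1.54-fold), whereas its neighbour RPL17, with which it forms read-through transcripts, differed by 0.13. PQLC1 (now SLC66A2), a membrane protein gene near the chromosome end, had 18098 in R-HL60 and 13005 in HL60 (1.38-fold), and a further measured probe gave 0.52. Its other probe, below the floor on both arrays, gave -0.30, and in the mean of all probes the difference was 0.23, under 1.2-fold. WDR7, whose product associates with the vacuolar proton pump, differed by 0.37 and DYM, a Golgi protein gene mutated in a skeletal dysplasia, by 0.29. Apart from PIGN, KIAA1468 and TMX3, given above, the others lay closer to 0. VPS4B, an ATPase that takes ESCRT complexes off membranes, was at 0.26, LMAN1, a cargo receptor between endoplasmic reticulum and Golgi, at 0.25, TXNL1, a thioredoxin-like protein gene, at 0.23, the lipid flippase gene ATP9B at 0.16 and the signal peptidase subunit SEC11C at 0.13. The GPI anchor genes outside the stretch give a setting for PIGN: all 23 were measured, with a median of -0.08, with 0 past 1.2-fold in the higher and 3 in the lower direction, from PIGM at -0.33 to PIGP at 0.19.

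Genes of metabolism and mitochondria were all above 0, with a median of 0.11 over the 5 measured and 2 at least 1.2-fold higher. ME2, a mitochondrial malic enzyme gene, had 4622 in R-HL60 and 3052 in HL60 (1.51-fold). FECH, ferrochelatase, which inserts iron in the last step of haem synthesis, had 575 in R-HL60 and 383 in HL60 (1.49-fold) and 0.81 on its other measured probe. KDSR, a reductase of sphingolipid synthesis, TIMM21, a subunit of the mitochondrial protein import machinery, and the dipeptidase gene CNDP2 differed by 0.09, 0.06 and 0.11. The other probe of KDSR gave -0.11. The 8 haem synthesis genes elsewhere had a median of 0.05, none at least 1.2-fold different in either direction, from UROS at -0.09 to ALAS1 at 0.22.

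In the RNA and translation group 3 of 5 members were at least 1.2-fold higher. NARS (now NARS1), the cytosolic asparaginyl-tRNA synthetase, had 20647 in R-HL60 and 14488 in HL60 (1.42-fold). CTIF, a translation factor that works with the nuclear cap-binding complex, differed by 0.39, and MEX3C, an RNA-binding ubiquitin ligase, by 0.32. TXNL4A, a spliceosomal protein of the U5 particle, differed by 0.24 and by 0.20 on its other probe. ZCCHC2, a zinc-finger protein gene, had 1742 in R-HL60 and 1918 in HL60, a difference of -0.15, and its other probe gave 0.05.

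Transcription and chromatin genes had the widest spread among the roles with at least 5 measured members, and held 3 of the 4 members below 0. All 12 were measured, with a median of 0.13, an SD of 0.29, and 3 were higher and 1 lower by at least 1.2-fold. ZNF516, a zinc-finger transcription factor, had 2280 in R-HL60 and 1441 in HL60 (1.57-fold), the largest difference among the 15 members nearest the chromosome end. CTDP1, the phosphatase that recycles RNA polymerase II by acting on its carboxy-terminal domain, differed by 0.41, though the 3 probes ranged from 0.02 to 0.41. MBD1, a reader of methylated DNA, differed by 0.39, and its 4 probes ran from 0.39 to 0.60. CXXC1, the CpG-binding subunit of histone H3 lysine methyltransferase complexes and the neighbour of MBD1, differed by 0.19, the homeobox and zinc-finger gene TSHZ1 by 0.19 and NFATC1, a calcineurin-dependent factor, by 0.22.

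Of the lower transcription factor genes, ZNF532 was dim, ZNF236 was nearly equal on both arrays, and TCF4 was neither. ZNF532 had 37.9 in R-HL60 and 51.98 in HL60 (1.38-fold lower), close to the floor. A further measured probe gave -0.40, and another, not above the floor on both arrays, gave 0.35. TCF4, an E protein of lymphoid and dendritic cell development, had 167 in R-HL60 and 195 in HL60 (1.17-fold lower) on its only probe. ZNF236, with 256 in R-HL60 and 255 in HL60, ADNP2, with 1123 in R-HL60 and 1094 in HL60, and SALL3, with 656 in R-HL60 and 636 in HL60, were nearly equal on both arrays, and ZNF407 differed by 0.06.

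**Figure D4:**
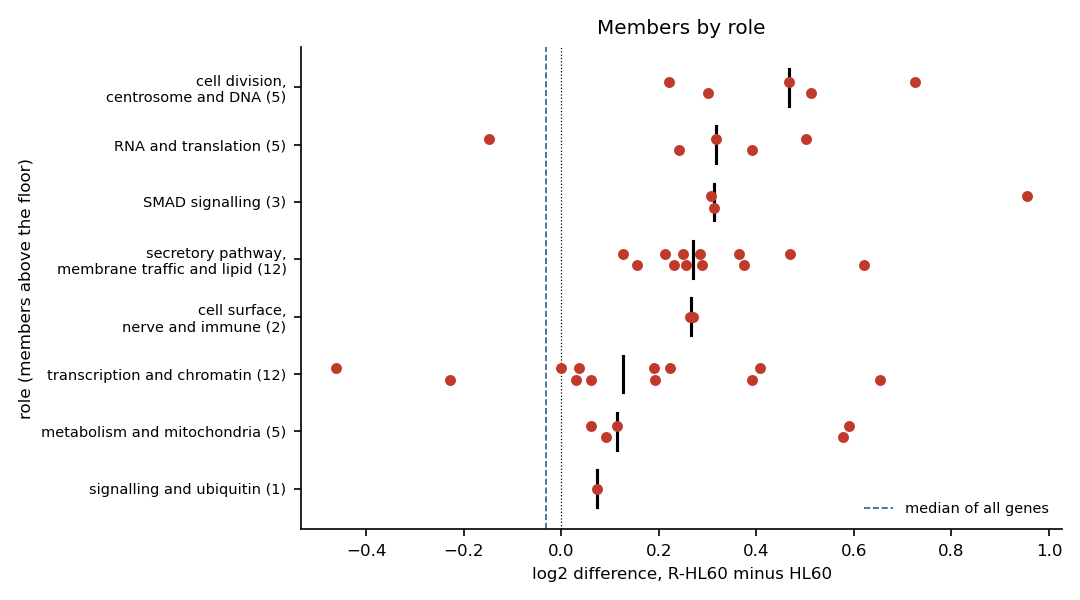
Log2 difference (R-HL60 minus HL60, horizontal axis) of the 45 members above the floor on both arrays, grouped by role, with the number measured in parentheses; short black lines are medians and the dashed line is the median of all genes, -0.03. The secretory group lies wholly above 0, and the transcription group runs from -0.46 to 0.65.

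Few signalling and surface genes were expressed. Of 5 signalling members only PHLPP1, a phosphatase that removes an activating phosphate from AKT, was measured on both arrays, with 340 in R-HL60 and 321 in HL60, a difference of 0.07. Of 4 surface, nerve and immune members MBP, which encodes myelin basic protein and, from an upstream start, the golli proteins also made in blood cells, had 10692 in R-HL60 and 8819 in HL60 (1.21-fold), with 0.12 on its other measured probe. NETO1, a dim gene for a receptor-associated protein of neurons, had 54.8 in R-HL60 and 45.4 in HL60 (1.2-fold), and its other measured probe gave -0.11.

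Further probes of the same genes mostly pointed the same way. Of 15 members with several probes above the floor on both arrays, every such probe was above 0 in 10, every one was below 0 in ZNF532, and probes lay on both sides of 0 in ZCCHC2, KDSR, NETO1 and ZNF407. The 4 mixed genes had differences near 0 or dim signals. Over all 63 measured probes of the members, 55 were above 0 and the median was 0.26. The share over all measured probes was not counted, and over all genes 42.8% were above 0. Since the members were chosen for higher signals, these counts describe that choice.

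**Figure D5:**
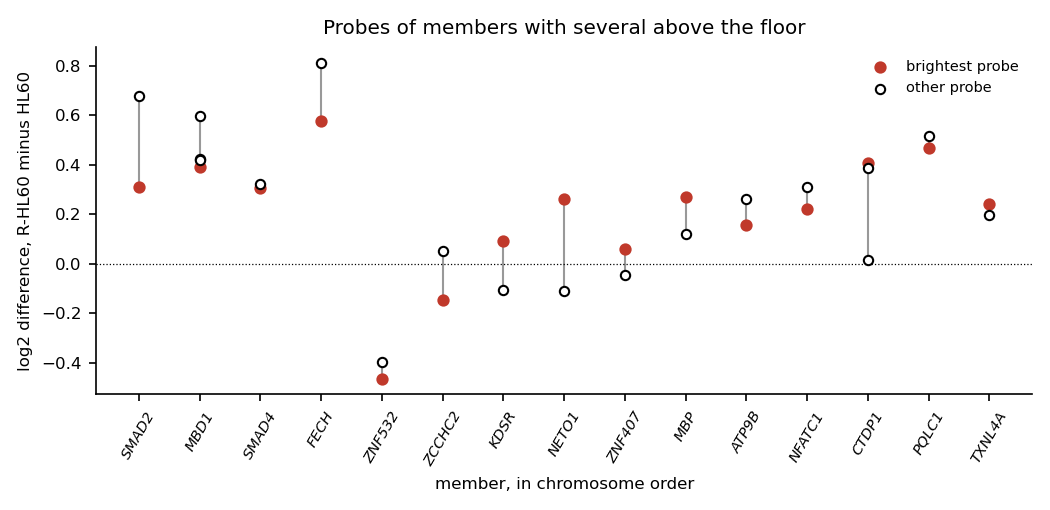
Log2 difference (R-HL60 minus HL60, vertical axis) of each probe above the floor on both arrays, for the 15 members with several such probes, in chromosome order; filled points are the brightest probe of a gene and open points the others. All probes of SMAD2, MBD1, SMAD4 and FECH lie between 0.31 and 0.81.

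The list of members leaves out other genes of the same stretch, which were counted separately. Of 49 further protein-coding genes named in the files from SMAD2 to the q end, 17 were measured on both arrays, and their median was 0.20, with 13 above 0, 7 higher by at least 1.2-fold and 1 lower by as much. The largest difference was that of PMAIP1, a BH3-only apoptosis gene, with 4478 in R-HL60 and 2240 in HL60 (1.99-fold). BCL2, the survival gene, differed by 0.20 and 0.19 on its 2 probes, and MALT1, a paracaspase of NF-kB signalling, by 0.52. ST8SIA3, a sialyltransferase gene, differed by 0.75 at signals of 84.8 in R-HL60 and 49.9 in HL60. Above the floor on the R-HL60 array only were TNFRSF11A, SERPINB5 and SERPINB2, at least 1.26-fold, 1.32-fold and 1.72-fold higher. Members and these genes together gave 54 of 62 above 0 and a median of 0.25.

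Non-coding transcripts of the stretch followed a similar pattern. Of 24 named in the files, 16 were measured on both arrays, with a median of 0.23, 13 above 0, 8 higher by at least 1.2-fold and 1 lower by as much, LINC-ROR at -0.44. The median was 0.46 when the mean of all probes of a transcript was used. Several of the larger differences lay side by side around ZNF516. LINC00908 had 319 in R-HL60 and 128 in HL60 (2.47-fold) on its brightest probe, but its 6 measured probes ran from -0.03 to 1.31. The 3 measured probes of LINC00683 ran from 0.79 to 1.04, and ZNF516-DT, transcribed away from ZNF516, differed by 0.48. PARD6G-AS1, at the very end of the chromosome, had 181 in R-HL60 and 116 in HL60 (1.55-fold) while PARD6G itself was below the floor on both arrays, and its other measured probe gave 0.13. LINC01544 differed by 0.80 at dim signals of 54.6 in R-HL60 and 31.1 in HL60. GTSCR1, with 71.5 in R-HL60 and 24.3, below the floor, in HL60, was at least 2.32-fold higher.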

How the data were processed

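RNA of R-HL60 and HL60 was hybridised to 1 Agilent one-colour array each and, per the submitters' notes on processing, extracted with Agilent Feature Extraction 10.7.3.1. The deposited raw files give gene names with a linear intensity for every probe, but no probe identifier, background or detection flag, and the background treatment is not stated. The deposited normalized intensity table, in which both arrays differ by at most 1.17% at equal rank, served as an alternative; how it was made is not stated.

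Intensities were taken to log2 and each array's 75th percentile was subtracted. A gene was represented by its brightest probe over both arrays, and the floor was the array median. A gene above the floor on 1 array has a bound, against the higher of the floor and its own value on the other array. Of 43317 names, 21081 were current symbols of a GRCh38.p14 gene table and 1567 were updated from an older symbol. The table, whose assembly may not be that of the array design, served for names and gene order; coordinates are given only for RefSeq promoter windows. With 1 array per line the number of arrays limits precision, and no test was made. Genes were called at 1.2-fold. Steps were tested on simulated data made from the HL60 signals, where a log2 shift of 0.3 put into the members was recovered as a median of 0.25. The recovered median thus fell short of the shift. The simulated noise was independent between probes and smaller than the SD between probes of these data, and 1 simulation was run. Members, lists and roles were chosen with earlier results of these data known. Both signals were given for the 10 largest and 6 lowest differences of members measured on both arrays, for the SMAD genes and for members with a bound; the 3 genes on each side of SMAD2 and the extremes of each list were named, other genes of the stretch at 1.5-fold or beyond, and further genes after their values were seen. Analyses used Python 3.11.15, numpy 2.4.6, pandas 2.3.3, statsmodels 0.14.6 and matplotlib 3.10.9.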

Additional observations from a re-analysis of the deposited data

How the results depend on the processing

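The median of the members stayed between 0.25 and 0.33 under 9 other settings, which were the authors' table, loess by brightness, quantile normalization, a median shift, the mean of all probes, no floor, a floor at the 40th or at the 60th percentile, and an offset of 50 units. The median of chromosome 18 before SMAD2 stayed between -0.08 and -0.03 under the same settings. Members at least 1.2-fold higher numbered 22 to 29 under these settings, 5 at a 1.5-fold threshold and 0 at a 2-fold threshold. The authors' table and quantile normalization gave nearly the same values, with a member median of 0.31 in both. They are in effect the same setting and do not bear on the result independently. Members at least 1.2-fold lower were 0 with the offset, with the floor at the 60th percentile, with the mean of all probes and at thresholds of 1.5-fold and 2-fold, 2 with the floor at the 40th percentile and 5 with no floor, which admits members at background. The median of the non-coding transcripts was 0.46 in the mean of all probes, and the cause was not tested. Of 400 recomputed values of single members, 3 moved beyond the SD between probes: ZNF532 to -0.22 with the offset and -0.17 in the mean of all probes, and PQLC1 to 0.23 in the mean of all probes. Settings that differ only in the floor change which genes are measured and not their values. A gene with 1 probe cannot change in the mean of all probes. Many of the 400 values therefore could not move, and the count is no measure of stability. No paired analysis was possible because each line has 1 array. Dim members, such as CCDC102B, NETO1 and ZNF532, lie close to the floor, where the signal limits what can be read from a difference.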
